A study of Mus musculus with 21 samples.

Results

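The measurement described here is the excess, that is, how far the transcript change of Pax6 Sey mutant cortex lay from the sum of the changes of the 2 other Pax6 mutants, Leca4 and Leca2. For each gene the change of a mutant was its mean log2 value minus that of its own control littermates, and the excess was the Sey change minus the summed Leca4 and Leca2 changes. The contrast is defined by the design and not by measured values, although it was picked with earlier results of these data known, and it uses all 21 of the 21 arrays and all 13850 genes that could be tested. A positive excess means that transcript in Sey was higher than the sum places it, and a negative excess that it was lower. In these embryos the ventral telencephalic genes of the Dlx family rose in Sey, were not called in either Leca line and stood far above the sum. Neurog1, Neurog2 and Eomes, which act in dorsal neurogenesis, lay far below it. A small set of 9 genes, among them Crabp1, Id3 and Cdh8, had a Sey change close to the sum.

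Pax6 encodes a transcription factor with 2 DNA-binding parts, a paired domain and a homeodomain, and radial glia of the dorsal telencephalon express it. The paired domain is itself made of an N-terminal PAI and a C-terminal RED subdomain, each of which can contact DNA. In the cortex Pax6 is known for promoting neurogenesis, for holding the border between dorsal and ventral territories and for its influence on progenitor division.

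Total RNA of rostral cerebral cortex at embryonic day 14 was measured on Affymetrix arrays, 1 array per embryo sample, and the values are log2 RMA values per probe set. Sey mutants (Small-eye, 4 arrays) and their wild type littermates (3 arrays) were of the strain C57BL/6J x DBA/2J (B6D2F1). Leca4 mutants (3 arrays) with wild type littermates (4 arrays) and Leca2 mutants (4 arrays) with wild type littermates (3 arrays) were of the strain 129 S6. The animals were untreated, and the labels call the arrays of a group biological replicates without giving the zygosity of the mutants. From general knowledge, not from the labels, the Sey allele truncates the protein ahead of the homeodomain and is taken as null, while Leca4 alters the PAI and Leca2 the RED subdomain. Because the Sey line differs from the Leca lines in strain, allele and strain cannot be told apart in the excess. The arrays number 3 or 4 per group, which limits the precision, and the p-values measure the spread between these samples.

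Array medians lay between 6.03 and 6.26, in narrow ranges that differed between the lines, and within a group the arrays correlated across probe sets with r of 0.9931 or more. The sex of the embryos was uneven in a way that bears on the excess. As read from Xist and Y-linked genes, the Sey mutants were 3 females and 1 male against 3 male controls, and the Leca2 mutants 2 females and 2 males against 3 female controls. The Leca4 mutants were 1 female and 2 males against 1 female and 3 males. Counts and genes are therefore also given with a term for sex in the model where that term ends a call or moves a count by over 1.5 times. Values at the level of the filter on dim probe sets, between 5.37 and 5.6, carry no size below it, and a group at that level is named where it occurs.

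A change or an excess was called at an adjusted p under 0.05 in limma, and 613 genes (4.43% of those tested) had an excess called in either direction. The excess was positive for 288 genes (2.08%) and negative for 325 (2.35%). By itself the Sey change was called for 2791 genes (20.2%), 1488 upward (10.7%) and 1303 downward (9.41%). The Leca4 change was called for 779 genes (5.62%) and the Leca2 change for 66 (0.477%). Their sum was called for 372 genes (2.69%), 231 upward (1.67%) and 141 downward (1.02%). The median excess over all genes was -0.01 on the log2 scale and its median standard error 0.14. With the term for sex 299 genes had a called excess, 286 of them among the 613. Adding the alleles as folds instead of log2 changes gave an excess of at least 1 in size for 241 genes against 235, with 219 shared and of the same sign. A summed fold below 0.1 was set to 0.1 there. Values are those of a gene's brightest probe set. Of 49 named genes with several probe sets and a call for the brightest, every probe set was called in 19 and the brightest alone in 22, and in 4 (Cemip, Neurod2, Pax6 and Slc1a3) another probe set had an estimate of the opposite sign.

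Every gene was then placed by its calls. Beyond the sum were genes with a called Sey change and a called excess of the same sign, 442 in all (3.19%), of which 232 rose and 210 fell in Sey. Matched by the sum were genes with Sey and summed changes both called in 1 direction and with a 95% interval of the excess inside ± 0.5 times the Sey change, of which there were 9 (0.065%). Short of the sum were genes with a called summed change and a called excess of the opposite sign, 112 in all (0.809%). Opposed to the sum were genes with Sey and summed changes called in opposite directions and a called excess, 30 in all (0.217%). These 30 were left out of the genes beyond and short of the sum. The classes are read from the measured values, so class medians below describe the genes and test nothing. With the term for sex 193 genes were beyond the sum and 5 were matched.

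**Figure D1:**
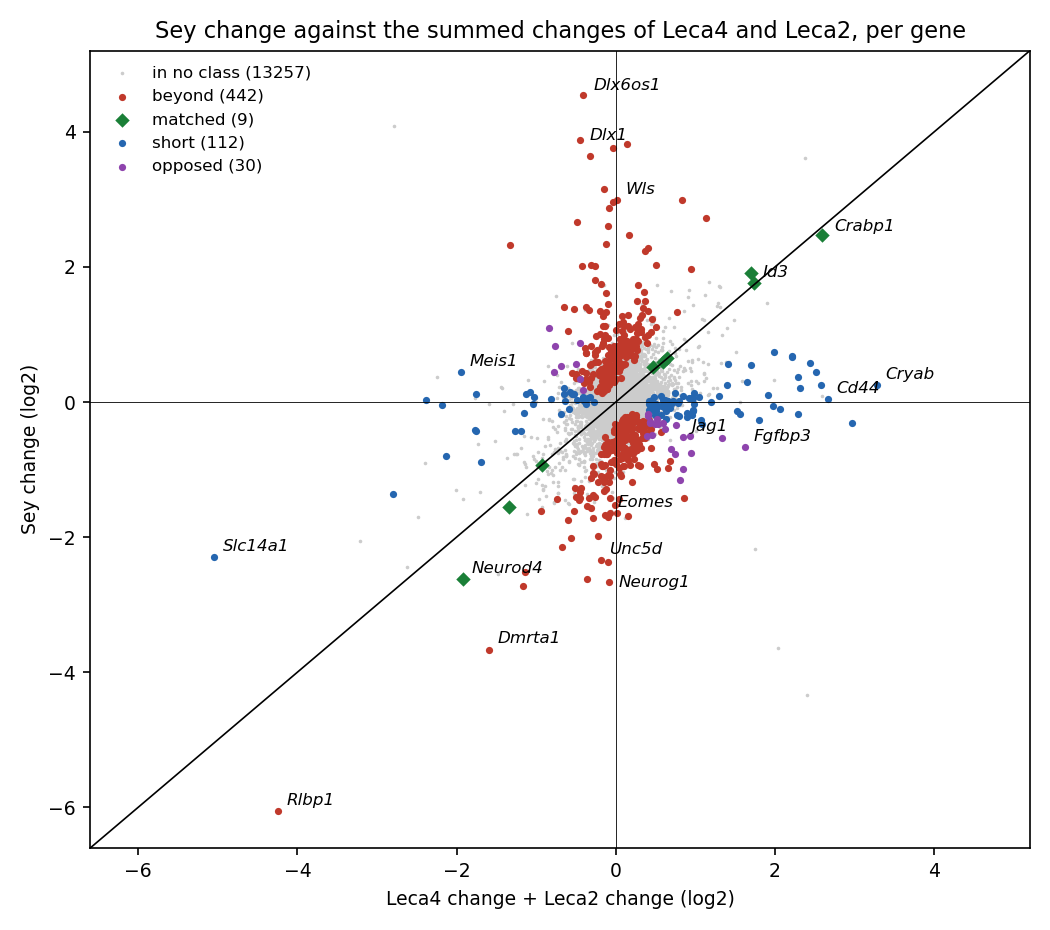
Each point is 1 of the 13850 genes, with the summed log2 changes of Leca4 and Leca2 on the horizontal axis and the log2 change of Sey on the vertical axis, coloured by class. The diagonal marks an excess of 0. The genes beyond the sum form a vertical cloud near a summed change of 0, with Dlx6os1 and Dlx1 at its top, the genes short of the sum lie along the horizontal axis, and the 9 matched genes lie along the diagonal.

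Most of the Sey response could not be assigned. Of the 2791 genes called in Sey, 2305 had no called excess, and for 1136 of these the 95% interval of the excess held both 0 and the whole Sey change, so that the arrays cannot say which applies. The sum pointed in the Sey direction for 1971 of the 2791 genes, but with a median of 0.08 on the log2 scale beside a median Sey change of 0.39 in size. Among the 223 genes that changed over 2-fold in Sey, 118 were beyond the sum, 5 matched, 2 short and 2 opposed. The median Sey change of these 223 was 1.36 in size, and the summed change in the Sey direction was 0.33, of which Leca4 had a median of 0.17 and Leca2 of 0.15. Across the 13850 genes, which are not independent, the Sey change correlated with the summed change with r = 0.31. Its r was 0.17 with the Leca4 change and 0.30 with the Leca2 change, while the Leca4 and Leca2 changes had r = -0.01 with each other.

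The 2 alleles related to the Sey change in different ways. Of the 779 genes called in Leca4, 280 (35.9% of them, 10% of the Sey calls) were also called in Sey, 189 in the same direction and 91 in the opposite one. Of the 66 genes called in Leca2, 45 (68.2% of them, 1.61% of the Sey calls) were also called in Sey, all 45 in the same direction. Among the 442 genes beyond the sum neither Leca allele was called for 377, and Leca4 was called for 64, against the Sey direction in 46 of them.

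The group furthest above the sum was that of the ventral telencephalon and of GABAergic neurons. Of 21 measured genes 13 rose in Sey, 1 rose in the sum, and 12 had a called positive excess with none negative. The median log2 change was 1.75 in Sey, -0.15 in Leca4, 0.07 in Leca2 and -0.10 in the sum, and the median excess was 1.59. All 12 were beyond the sum, and with the term for sex 10 calls were made. The Sey estimate was above 0 for 14 of the 21 genes. It was below 0 and not called for Lhx6 (-0.56), Npy (-0.33), Six3, Ebf1, Nkx2-1, Sst and Gsx1. Isl1 had a Sey change of 1.42 and a sum of 1.27, neither of them called.

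Dlx1, a homeobox gene that specifies interneuron precursors, read 8.11, 8.82 and 8.65 in the Sey controls and 12.49, 12.13, 12.66 and 12.36 in the Sey mutants. It read 8.91, 8.87, 10.05 and 9.29 in the Leca4 controls and 8.32, 8.75 and 8.14 in the Leca4 mutants, and 7.47, 8.41 and 8.52 in the Leca2 controls against 7.80, 9.37, 9.58 and 7.45 in the Leca2 mutants. Only the Sey mutants stood apart from all other arrays, at 14.8-fold over their controls, while the Leca4 mutants lay below their controls and the Leca2 mutants overlapped theirs. Its Sey change was 3.88 ± 0.42 (SE of the fit), the summed change -0.46 ± 0.60 and the excess 4.34 ± 0.73 (adjusted p = 0.0013). Replicate 3 of the Leca4 controls was the highest of its group for Dlx1, at 10.05, and likewise for Dlx6os1 (8.38) and Gsx2 (7.12). Leaving out any 1 array, the excess of Dlx1 stayed called and lay between 3.97 and 4.68.

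The other Dlx genes did the same. The excess was 3.68 ± 0.61 for Dlx2, 3.80 ± 0.47 for Dlx5 and 4.96 ± 0.71 for Dlx6os1, a transcript antisense to Dlx6. Dlx6 had an excess of 3.00 ± 0.32, but it was at the filter level in every group except the Sey mutants, so 2.70 is the value with those groups set to that level. Upstream of the Dlx genes in ventral progenitors, the homeobox gene Gsx2 had an excess of 3.29 ± 0.49. It read between 8.59 and 9.31 in the Sey mutants and between 5.23 and 7.12 in all other arrays, where the Leca2 controls were at the filter level (3.34 with them set to it). Olig2, a bHLH factor of ventral progenitors, rose in the sum as well (1.13 ± 0.30, adjusted p = 0.048), and its Sey change of 2.73 ± 0.21 lay 1.59 ± 0.36 above that. Vax1, a homeobox gene of the ventral forebrain, had an excess of 3.15 ± 0.48 by 1 probe set and 0.71 by the other, which was not called. Slc18a2, the vesicular monoamine transporter, was at the filter level in 4 of the 6 groups, and its excess of 3.96 ± 0.67 became 2.55 with those groups set to the level.

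Outside that list, Pbx3, which encodes a TALE homeodomain cofactor, rose by 2.32 ± 0.34 in Sey and fell by 1.39 on the log2 scale in Leca4 (SE 0.34, adjusted p = 0.021). Its excess of 3.65 ± 0.59 therefore held changes of both lines in opposite directions. Wls, which is needed for the secretion of Wnt ligands, read 5.69, 5.83 and 5.63 in the Sey controls and 8.43, 8.86, 8.72 and 8.80 in the Sey mutants. In the Leca lines all 14 arrays lay between 5.71 and 6.59, with mutants and controls overlapping. The excess of Wls was 2.98 ± 0.26 (adjusted p = 9.2e-07), and 3 of 3 probe sets were called. Back on the ventral list, Sp8, a zinc finger factor of rostral patterning and of interneurons, had an excess of 2.96 ± 0.42.

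Proneural and intermediate progenitor genes held called excesses of both signs, most of them negative. Of 21 measured genes 9 fell and 6 rose in Sey, 1 fell and 1 rose in the sum, and 5 had a called negative and 1 a called positive excess. The median excess of the list, 0.03, stood close to that of all genes.

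Neurog1, a proneural bHLH gene of dorsal progenitors, read 8.26, 8.0 and 8.33 in the Sey controls and 5.42, 5.62, 5.40 and 5.66 in the Sey mutants. These Sey mutant values lay close to the filter level. The Leca4 mutants, at 10.59, 10.36 and 10.66, lay above their controls at 9.24, 9.16, 8.96 and 9.42. The Leca2 mutants, at 8.0, 7.56, 7.19 and 7.76, lay below theirs at 9.31, 8.95 and 8.93. No mutant array overlapped its controls in any line, and the direction differed between the Leca lines. Neurog1 rose by 1.34 ± 0.15 in Leca4 and had a change of -1.43 ± 0.15 in Leca2, which cancel to a sum of -0.09 ± 0.22 beside a Sey change of -2.67 ± 0.15. The excess was -2.58 ± 0.27 (adjusted p = 8.6e-06), while a second probe set gave -0.18 and was not called.

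Neurog2, the related gene that drives cortical neurogenesis, read 12.35, 12.29 and 12.33 in the Sey controls and 10.60, 11, 10.49 and 10.75 in the mutants. The 4 Leca2 mutants, at 12.01, 11.91, 11.74 and 12.12, also lay below their controls at 12.50, 12.39 and 12.40, with a change of -0.48 ± 0.12 that was not called (adjusted p = 0.10). Its excess was -1.09 ± 0.21 (adjusted p = 0.0036). Eomes, the T-box gene of intermediate progenitors, had estimates near 0 in both Leca lines. It read 11.94, 11.94 and 11.99 in the Sey controls, 10.26, 10.57, 9.98 and 10.45 in the Sey mutants, and between 12.38 and 12.67 in all 14 Leca arrays. The Sey change of Eomes was -1.64 ± 0.10, the sum -0.08 ± 0.14 and the excess -1.57 ± 0.17 (adjusted p = 1.2e-05), with both probe sets called. The somatostatin receptor gene Sstr2, another gene of these progenitors, had an excess of -1.02 ± 0.12.

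**Figure D2:**
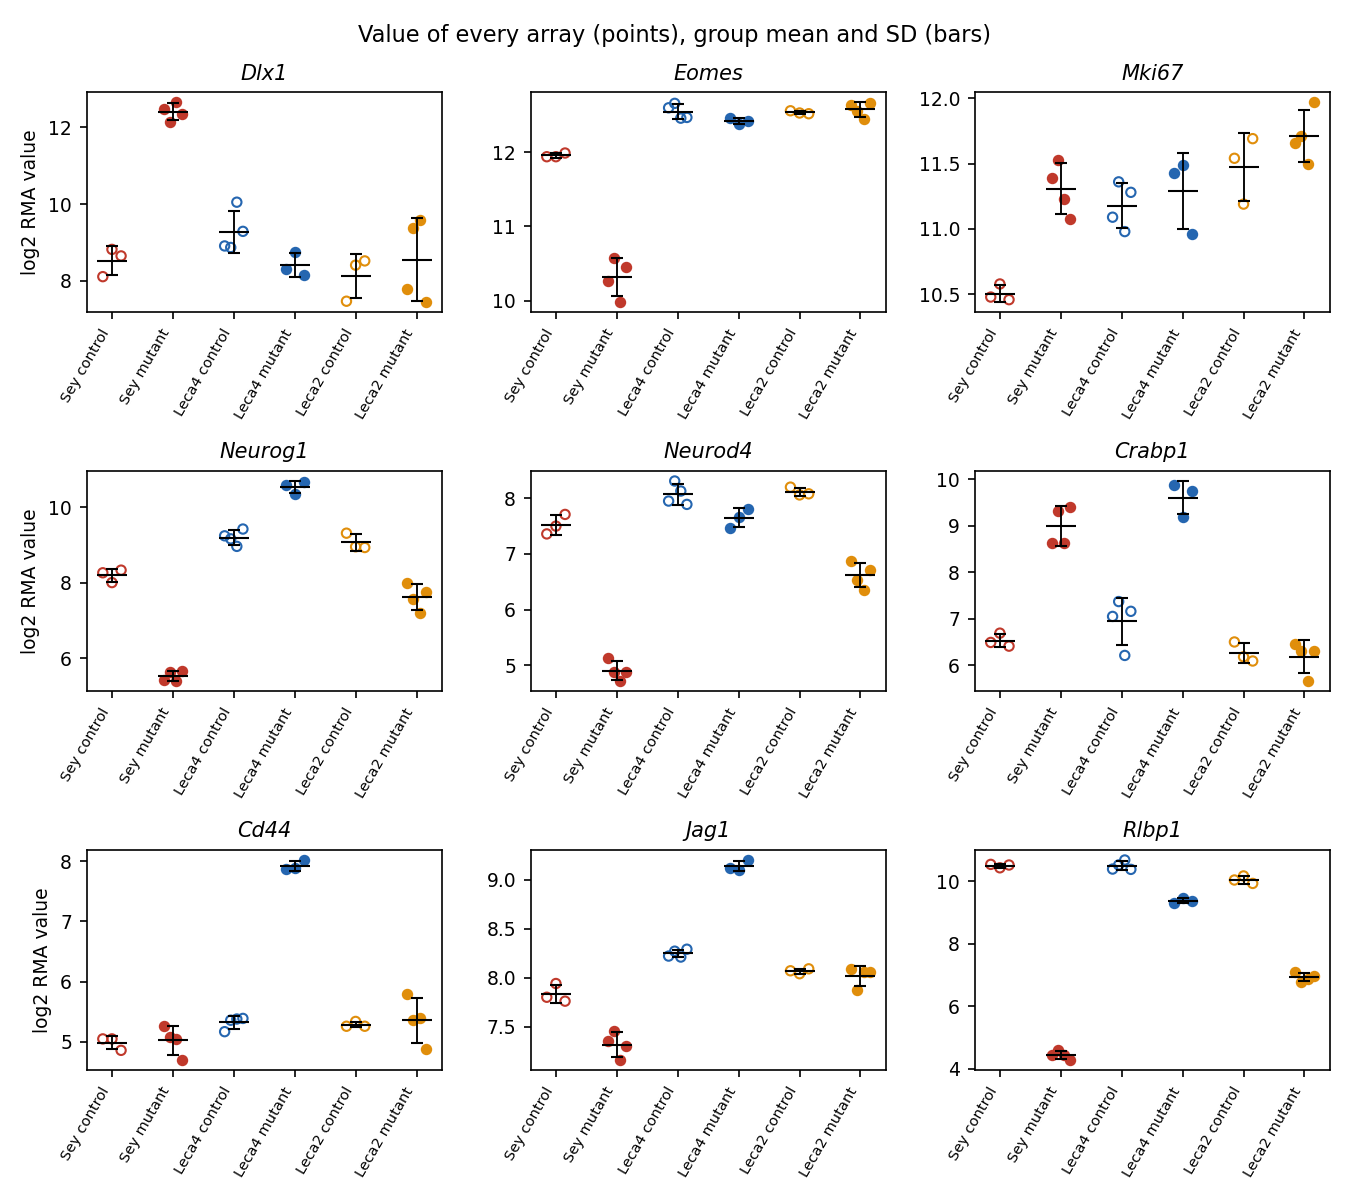
Log2 RMA values of 9 genes in every array, with open circles for controls, filled circles for mutants, and bars for the group mean and SD. Dlx1 and Eomes have their large shift in the Sey mutants, and for Dlx1 the Leca4 mutants also lie below their controls. Neurog1 shifts upward in Leca4 and downward in Leca2 and Sey. Crabp1 shifts in Sey and Leca4 alike, Cd44 only in Leca4, and Jag1 in opposite directions in Sey and Leca4. Rlbp1 shifts by increasing amounts in Leca4, Leca2 and Sey. Each panel has its own vertical range.

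The promoters of some of these genes hold letters that homeodomain proteins are known to prefer, and 4 stretches are shown because the data place their genes among the largest Sey changes or, for Eomes and Tbr1, share the rarer motif, the paired site. RefSeq windows (GRCm38.p6) of 250 bases before to 50 after a start were searched on both strands for TAATTA and for the paired site, which is TAAT and ATTA with any 3 bases between them and can overlap TAATTA. A window was found for 11114 of the tested genes. TAATTA stood in 3.32% of them, and in 17 of 353 genes beyond the sum (4.82%), 4 of 89 short of it (4.49%), 1 of 23 opposed (4.35%) and 0 of 7 matched. The paired site stood in 27 of the 11114 genes (0.243%), among which Eomes was the one gene beyond the sum. Capitals mark each match, and every stretch ends at or before the start of the gene.
Eomes, chr9:118478028-118478138, plus strand: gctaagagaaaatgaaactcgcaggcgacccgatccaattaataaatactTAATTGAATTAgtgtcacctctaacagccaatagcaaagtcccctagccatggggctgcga
Tbr1, chr2:61804385-61804452, plus strand: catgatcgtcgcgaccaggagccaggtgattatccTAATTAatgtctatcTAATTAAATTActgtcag
Neurog1, chr13:56252324-56252429, minus strand: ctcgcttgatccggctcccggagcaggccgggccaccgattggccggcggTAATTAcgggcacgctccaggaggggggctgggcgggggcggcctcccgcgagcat
Dlx6os1, chr6:6869608-6869713, minus strand: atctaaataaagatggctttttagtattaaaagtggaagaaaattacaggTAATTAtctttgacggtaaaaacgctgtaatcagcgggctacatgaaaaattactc
A match describes the letters of a window and says nothing of binding, and TAATTA was held both by Dlx6os1, which rose in Sey, and by Neurog1, which fell.

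Among genes of cortical projection neurons more called excesses were negative than positive. Of 25 measured genes 14 fell and 3 rose in Sey, 2 fell and 2 rose in the sum, and 6 had a called negative and 1 a called positive excess. The median log2 change was -0.34 in Sey and 0.02 in the sum, with a median excess of -0.48. The summed level of 7 markers of cortical identity, some of them on this list, was lower in every Sey mutant (14.22 to 14.49, log2) than in every Sey control (14.59 to 14.66), and its part in these values was not tested. The vesicular glutamate transporter gene Slc17a6 had a Sey change of -1.18 ± 0.09, a sum of -0.15 ± 0.12 and an excess of -1.03 ± 0.15. Foxp1, a forkhead gene of upper and middle layers, rose in Leca4 (0.70 ± 0.10) and fell in Sey (by 0.53 on the log2 scale), for an excess of -0.85 ± 0.18, and 4 of its 7 probe sets were called. The T-box gene Tbr1 of early-born projection neurons did not reach the threshold, with an excess of -0.88 ± 0.28 (adjusted p = 0.089) and summed change of 0.02 ± 0.23. Neurod2 had an excess of -0.58 ± 0.14, and Cux2, an upper-layer gene, one of -0.84 ± 0.27 that was not called (adjusted p = 0.085). With the term for sex 3 negative calls were made, and that of Neurod2 ended (adjusted p = 0.13). There were 3 negative calls without Leca2 control replicate 1 and 3 with the replicate block. Synaptic and maturation genes had a called excess for 1 of 22, with 10 that fell in Sey and a median excess of -0.15. That gene was Syt4, which encodes a vesicle protein (-0.85 ± 0.23, adjusted p = 0.045, and 0.17 with the term for sex), and the count was 0 to 2 without 1 array. Snap25, of the vesicle fusion machinery, missed the threshold at -0.62 ± 0.18 (adjusted p = 0.06).

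Among genes of adhesion and axon guidance the called excesses were also mostly negative. Of 39 measured genes 24 fell and 6 rose in Sey, 6 fell and 2 rose in the sum, and 7 had a called negative and 1 a called positive excess, with a median excess of -0.45. Unc5d, a netrin receptor gene of migrating cortical neurons, read 9.35, 9.19 and 9.29 in the Sey controls and 6.73, 7.28, 6.74 and 7.0 in the Sey mutants. Leca4 mutants, at 9.46, 9.93 and 9.34, overlapped their controls at 9.96, 9.66, 9.90 and 9.68, and Leca2 mutants, at 9.11, 9.21, 9.43 and 9.14, overlapped theirs at 8.80, 9.49 and 9.26. Its excess of -2.15 ± 0.28 (adjusted p = 0.0001) was thus nearly the whole Sey change of -2.34 ± 0.16. The ephrin receptor gene Epha3 had an excess of -0.78 ± 0.11 (-0.03 and -0.64, not called, by its other probe sets), the ephrin gene Efna3 of -0.62 ± 0.09 and the protocadherin gene Pcdh8 of -0.91 ± 0.15. The cadherin gene Cdh4 had an excess of -1.15 ± 0.29, not called with the term for sex (adjusted p = 0.14). In the list 4 negative and 0 positive calls were made with that term. Without Sey mutant replicate 2 there were 13 negative calls. The largest negative excesses outside the lists included those of Kif26b, a kinesin family gene (-2.27 ± 0.20), Lratd1 (-2.25 ± 0.30) and Sorl1, a sorting receptor gene (-1.83 ± 0.33).

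Cell cycle genes rose in Sey almost without exception, and the sum was small and mostly of the same sign. Of 29 genes of DNA replication 28 rose in Sey, 1 rose in the sum, and 10 had a called positive excess. Of 29 genes of mitosis and cytokinesis all 29 rose in Sey, 1 rose in the sum, and 6 had a called positive excess. The medians for replication were 0.64 in Sey, 0.18 in the sum and 0.51 for the excess, and for mitosis 0.71, 0.12 and 0.50. The estimate of the sum was above 0 for 25 of 29 genes in each list, and that of the excess for 28 and 29. Neither list held a gene called by limma in Leca4 or Leca2. At an unadjusted p under 0.05 the replication list held 6 in Leca4 and 8 in Leca2, and the mitotic list 2 and 3.

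Mcm6, a subunit of the replicative helicase, read 10.55, 10.47 and 10.49 in the Sey controls and 11.29, 11.33, 11.39 and 11.32 in the Sey mutants. The Leca4 mutants read 11.73, 11.50 and 11.63 beside controls at 11.36, 11.56, 11.40 and 11.48, and the Leca2 mutants 11.81, 11.55, 11.53 and 11.72 beside controls at 11.69, 11.51 and 11.50. In both Leca lines the groups overlapped, and both control groups stood above the Sey controls, a comparison that crosses strains and lines whose array medians differ. The excess of Mcm6 was 0.57 ± 0.13 (adjusted p = 0.013), and it was not called with the term for sex (adjusted p = 0.061). The sliding clamp gene Pcna had an excess of 0.59 ± 0.11, the replication factor gene Cdc45 of 0.88 ± 0.18 and the topoisomerase gene Top2a of 0.68 ± 0.15, and these 3 were called with the term for sex too. The excess of Mki67, the proliferation marker, was 0.45 ± 0.25 and not called (adjusted p = 0.39), nor was that of the licensing gene Cdc6 (0.72 ± 0.21, adjusted p = 0.055). For Aspm, a spindle pole gene, the sum itself was called, at 0.52 ± 0.14 (adjusted p = 0.042), and the excess of 0.33 ± 0.17 was not. Another of its 5 probe sets read the other way, with a sum of -0.05 and a called excess of 0.94 (adjusted p = 0.0078). With the term for sex 2 replication calls and 1 mitotic call were made. There were 4 replication calls without Leca2 control replicate 1, 5 without Sey control replicate 1 and 6 without Leca4 mutant replicate 2. The mitotic count lay between 2 (without Sey mutant replicate 3) and 9 (without Leca2 control replicate 2), moved by over 1.5 times for 14 of the 21 arrays, and was 2 with the replicate block.

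Regulators of G1 were mixed. Of 20 genes 9 rose and 2 fell in Sey, and 2 had a called positive and 1 a called negative excess. E2f2, which activates S phase genes, had an excess of 1.04 ± 0.22 and Ccnd2, cyclin D2, one of 0.44 ± 0.11, neither called with the term for sex (adjusted p = 0.058 and 0.12). Hmga2, a chromatin protein gene of self-renewing progenitors, read between 8.45 and 8.90 in the Sey controls and between 6.47 and 7.42 in the Sey mutants. The 2 positive calls fell to 0 with that term and to 1 without Sey control replicate 3, among others. The excess of Hmga2 was -1.54 ± 0.33, called for 3 of 3 probe sets and with the term for sex. Ccnd1, cyclin D1, had no called change in Sey or in the sum.

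Several patterning groups held called excesses. Of 16 dorsal and areal patterning factors 6 rose and 3 fell in Sey, 1 rose and 4 fell in the sum, and 4 had a called positive and 3 a called negative excess. Pbx3, Sp8 and Meis1 are described beside their classes, and the fourth positive one was Nr2f2, a nuclear receptor gene of caudal cortex and of interneurons (0.88 ± 0.18). The negative ones were Dmrta1, Etv5 and Pax6. Of 13 genes that mark Cajal-Retzius neurons, which populate the marginal zone early, 7 rose in Sey, limma called 0 in the sum (0 also at an unadjusted p under 0.05), and 5 had a called positive excess, with a median excess of 0.71. Ebf3 and Lhx5, transcription factor genes of these cells, had excesses of 1.03 ± 0.17 and 1.12 ± 0.23. Those of Lhx1 (0.99 ± 0.24) and Ebf2 (1.20 ± 0.30) were not called with the term for sex (adjusted p = 0.10 and 0.11), with which 2 calls were made in the list. There were also 2 calls without Sey control replicate 3, Leca2 control replicate 1 or Leca4 mutant replicate 2. Reln, Ndnf, Nhlh2, Car10, Ebf1 and Barhl1 of the same list were not called in Sey. For Reln the Sey change was 0.27, the sum 0.45 and the excess -0.18 (adjusted p = 0.85). Of 11 diencephalic genes 3 had a called positive and 1 a called negative excess, the latter 0 with the term for sex or the replicate block, 0 without Sey mutant replicate 1, 2 without Leca4 mutant replicate 2 and moved by 17 of the 21 arrays. Gbx2, a homeobox gene of the thalamus and of the midbrain-hindbrain border, was at the filter level in every group except the Sey mutants, and its excess of 2.46 ± 0.15 became 1.23 with those groups set to the level. Uncx, a homeobox gene, rose in Leca4 too (1.54 ± 0.30, adjusted p = 0.0042), and its excess of 2.15 ± 0.53 was not called with the term for sex (adjusted p = 0.11). With the Sey controls and Leca2 mutants, which were at the filter level, set to it the excess of Uncx was 1.14. Of 14 antihem and lateral pallium genes, at the signalling border between dorsal and ventral pallium, 8 fell and 1 rose in Sey, and 5 had a called negative excess. These were Cdh4, Nrg3, Pcdh8, Dbx1 and the POU gene Pou3f1 (-0.83 ± 0.22, adjusted p = 0.037, and 0.14 with the term for sex). Dbx1, also the negative call of the diencephalic list, was not called in Sey and rose by 2.52 in Leca4. Sfrp2 (-0.25), Tgfa (-0.11) and Fgf7 (0.36) had no called excess. The count of negative calls was 1 with the term for sex, 2 with the replicate block and 1 without Sey control replicate 1. It moved by over 1.5 times for 15 of the 21 arrays.

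Calls in the progenitor and signalling lists ran from 1 to 4 genes a list, in each of the following a higher share than the 4.43% of all genes. Of 29 radial glia genes 8 rose and 7 fell in Sey, and 1 had a called positive and 2 a called negative excess. The negative count was 5 without Sey mutant replicate 2 and 1 with the term for sex. Sox1, a progenitor factor gene, had an excess of 0.78 ± 0.16, while Sox2 had one of 0.54 ± 0.22 that was not called (adjusted p = 0.21). Of 16 genes of the cortical hem and of Wnt signalling 2 had a called positive and 1 a called negative excess, the last being the R-spondin gene Rspo3 (-0.92 ± 0.15). With the term for sex 1 positive call was made in that list. Of 23 Notch genes 2 had a called negative excess, of which Jag1 is described below and Numbl, an adaptor that antagonises Notch, was at -0.50 ± 0.12 (not called with the term for sex, adjusted p = 0.12). Of 16 Fgf genes 1 had a called negative excess, the Fgf target Etv5 (-0.66 ± 0.14, and not called with the term for sex, adjusted p = 0.072). Of 20 ion channel genes 2 had a called positive and 2 a called negative excess. Without 1 array these counts lay between 1 and 2 and between 1 and 4. Both were 1 with the term for sex and 1 with the replicate block. The potassium channel genes Kcna1 and Kcnd2 stood at -1.39 ± 0.25 and 0.99 ± 0.21. Tle1, a Groucho corepressor gene, had a Sey change of 1.04 ± 0.09 and an excess of 0.59 ± 0.16 that was not called with the term for sex (adjusted p = 0.14).

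The genes matched by the sum took their summed change from different alleles. Of the 9 genes 6 were called in Leca4 and 3 in Leca2, none in both. Crabp1, which encodes a retinoic acid-binding protein, read 6.49, 6.69 and 6.41 in the Sey controls and 8.63, 9.31, 8.63 and 9.41 in the Sey mutants. The Leca4 controls read 7.05, 7.37, 6.21 and 7.16 and the Leca4 mutants 9.88, 9.20 and 9.74, while all Leca2 arrays lay between 5.66 and 6.50. Mutants and controls did not overlap in Sey or Leca4 and overlapped in Leca2. The Sey change was 2.47 ± 0.26, the sum 2.59 ± 0.37 with 2.66 ± 0.26 from Leca4, and the excess -0.12 with a 95% interval from -1.06 to 0.81. Id3, an inhibitor of bHLH factors, had a called rise of 1.13 ± 0.18 in Leca4. Its Leca2 estimate of 0.60 ± 0.18 was not called (adjusted p = 0.26). Its sum of 1.73 ± 0.26 stood beside a Sey change of 1.76 ± 0.18, and the interval of the excess ran from -0.64 to 0.70.

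Cdh8, a cadherin gene of cortical areas, is the matched gene with the largest fall from Leca4. The Sey mutants, at 5.51, 6.06, 5.91 and 5.83, lay below controls at 7.66, 7.30 and 7.19. The Leca4 mutants, at 6.79, 6.76 and 6.63, lay below controls at 8.09, 7.91, 8.0 and 7.69, and the Leca2 mutants, at 7.40, 7.58, 7.60 and 7.43, overlapped controls at 7.49, 7.78 and 7.66. Its Sey change of -1.56 ± 0.12 and sum of -1.34 ± 0.18 left an excess of -0.22 (95% interval from -0.67 to 0.23). Slc16a14, a monocarboxylate transporter family gene, took the larger share from Leca2, with -0.64 ± 0.09 in Leca2 and -0.28 ± 0.09 in Leca4 beside -0.93 ± 0.09 in Sey (interval of the excess from -0.33 to 0.31). The rises of Hpcal1, a calcium sensor gene (0.59 in Sey, 0.60 in the sum), of Epb41l4a (0.65 and 0.64) and of Tmem176b (0.52 and 0.47) completed the set with Neurod4 and Paupar.

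Neurod4 and Paupar have groups at the filter level, so their match is less certain than the numbers show. Neurod4, a bHLH gene downstream of the Neurogenins, read 5.13, 4.88, 4.72 and 4.88 in the Sey mutants, which is at that level, and 7.36, 7.50 and 7.71 in their controls. It fell in Leca2 to 6.87, 6.54, 6.36 and 6.72 from 8.20, 8.06 and 8.08, and the Leca4 mutants at 7.47, 7.66 and 7.81 lay just below controls at 7.95, 8.31, 8.13 and 7.89. The sum of -1.92 ± 0.18 stood beside -2.62 ± 0.13 in Sey, the excess of -0.70 ± 0.22 was not called (adjusted p = 0.078), and a second probe set of Neurod4 gave a called excess of -1.20. With the alleles added as folds the excess of Neurod4 turned to 0.69, so its direction depends on the scale of addition. The summed fold was there close to its lower limit of 0.1, so the 0.69 does not measure well how far Sey lay from the sum. Paupar, a long noncoding transcript beside Pax6, was at the level in 4 of 6 groups, with a Sey change of 1.90 ± 0.18 and a sum of 1.70 ± 0.26, nearly all of it from Leca2 (1.48 ± 0.18). Its excess was 0.20, and 0.82 with those groups set to the level.

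**Figure D3:**
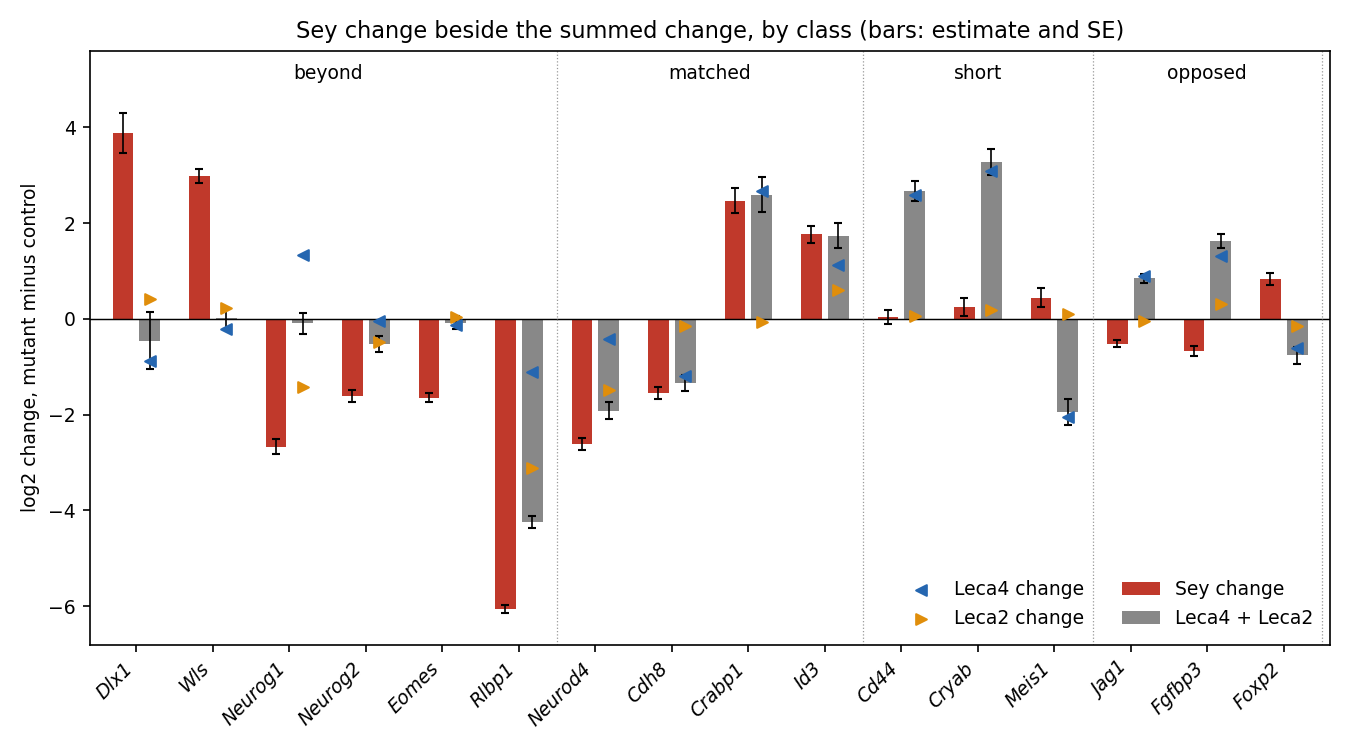
Log2 change of Sey (red bars) beside the summed log2 changes of Leca4 and Leca2 (grey bars) for 16 genes in the 4 classes, with whiskers for the standard error of the fit and triangles for the 2 alleles that make up each sum. The grey bars of Dlx1, Wls, Neurog1 and Eomes lie near 0 beside tall red bars, those of Crabp1 and Id3 are close to the red ones, and those of Cd44, Cryab and Meis1 stand beside red bars near 0. Rlbp1 is at the filter level in the Sey mutants.

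Rlbp1, a retinaldehyde-binding protein gene, fell in both Leca lines and further in Sey. It read 4.43, 4.60, 4.45 and 4.28 in the Sey mutants, 9.31, 9.45 and 9.38 in the Leca4 mutants and 7.08, 6.77, 6.88 and 6.97 in the Leca2 mutants, beside controls between 9.93 and 10.68 in all lines. No mutant array overlapped any control. The sum of -4.24 ± 0.12 made up most of the Sey change of -6.05 ± 0.09, and the excess of -1.82 ± 0.15 became -0.87 with the Sey mutants set to the filter level. Slc1a3, the glial glutamate transporter gene, had changes of -0.37 in each Leca line and -1.44 ± 0.10 in Sey, with an excess of -0.70 ± 0.17 that was not called with the term for sex (adjusted p = 0.081). Aldoc, a glycolytic gene of radial glia, had -0.48 ± 0.11 in Leca4, -0.64 ± 0.11 in Leca2 and -1.66 ± 0.11 in Sey, and its excess of -0.54 ± 0.19 was not called (adjusted p = 0.12). Other genes drew their sum from 1 allele. Cxcl12, a chemokine gene, had -1.44 ± 0.18 in Leca2, -0.04 ± 0.18 in Leca4 and -2.55 ± 0.18 in Sey, for an excess of -1.06 ± 0.30 that missed the threshold (adjusted p = 0.054). Dmrta1, a doublesex-related factor of the dorsal pallium, fell in Leca4 (-2.14 ± 0.28) and in Sey, where all mutants were at the level, and had a Leca2 change of 0.55 that was not called, and its excess of -2.07 ± 0.48 became -0.79 with them set to it.

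In the 112 genes short of the sum the change came mostly from Leca4. The Leca4 change was called for 103 of them and the Leca2 change for 13, the Sey change for 14, and the Leca4 change was the larger of the 2 for 98. The median size of the summed change was 0.80 and of the Sey change 0.11. Of 23 measured matrix and matricellular genes 5 had a called negative excess and 0 a positive one, while 7 rose in Leca4 and 1 in Sey.

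Cd44, the hyaluronan receptor gene, read 7.87, 7.88 and 8.02 in the Leca4 mutants. Its other groups were at or near the filter level, with Leca4 controls at 5.17, 5.36, 5.38 and 5.39, Sey arrays between 4.70 and 5.27 and Leca2 arrays between 4.88 and 5.80. Its excess of -2.62 ± 0.26 (adjusted p = 4.7e-06) was -2.42 with the groups at that level set to it. Adcyap1, a neuropeptide gene, was measured well above the level and rose 5.27-fold in Leca4, from 7.47, 7.60, 7.61 and 7.66 to 9.89, 9.92 and 10.14. It moved little in Sey, where the mutants read 7.02, 7.09, 6.85 and 7.12 and the controls 6.67, 6.84 and 6.81, and its excess was -2.33 ± 0.15 (adjusted p = 3.1e-08). Of 12 retinoid genes 2 rose and 1 fell in Sey, and 2 had a called negative excess, Rlbp1 and the retinol-metabolism gene Dhrs3 (-1.19 ± 0.13). Ccn2, a matricellular growth factor gene, had an excess of -2.46 ± 0.21 and Sparc, a collagen-binding matrix gene, of -0.76 ± 0.14. Cryab, which encodes a small heat shock chaperone, and Fbln7, a fibulin gene, had excesses of -3.03 ± 0.34 and -3.28 ± 0.56 with 3 groups each at the level, and -2.08 and -2.53 with those groups set to it. Dbx1, which encodes an antihem homeodomain factor, rose in Leca4 by 2.52 ± 0.29, and its excess of -1.86 ± 0.51 was not called with the term for sex (adjusted p = 0.098).

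The sum also overshot in the other direction. Meis1, a TALE homeobox gene, read 5.53, 5.54 and 5.86 in the Leca4 mutants and 7.30, 7.66, 7.96 and 7.83 in their controls. The Sey mutants, at 7.64, 6.79, 7.82 and 7.44, overlapped controls at 6.98, 7.07 and 6.90, and the Leca2 groups overlapped too. The Sey change of Meis1 was 0.44 ± 0.20 (adjusted p = 0.13), the sum -1.94 ± 0.28 and the excess 2.38 ± 0.34. Slc14a1, a urea transporter gene, fell in all 3 lines to the filter level in every mutant group, so its excess of 2.75 ± 0.31 shrank to 0.73 with those groups set to the level.

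Pax6 transcript itself was short of the sum. It rose by 0.56 ± 0.09 in Sey, 0.49 ± 0.09 in Leca4 and 0.93 ± 0.09 in Leca2, so that the summed rise of 1.41 ± 0.13 exceeded that of Sey by 0.86, an excess of -0.86 ± 0.16 (adjusted p = 0.003). The Sey mutants read 11.18, 11.34, 10.94 and 11.16 and their controls 10.60, 10.63 and 10.55, which did not overlap. Of its 4 probe sets 1 had a called excess, and the others reached up to 0.07.

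The 30 genes opposed to the sum were all called in Leca4 against the Sey direction, and 22 of them fell in Sey. Jag1, a Notch ligand gene, read 7.35, 7.46, 7.16 and 7.30 in the Sey mutants, below controls at 7.80, 7.94 and 7.76. In Leca4 the mutants, at 9.12, 9.10 and 9.20, lay above controls at 8.22, 8.27, 8.21 and 8.29, and in Leca2 the mutants, at 8.09, 7.87, 8.06 and 8.06, overlapped controls at 8.07, 8.04 and 8.09. Its Sey change was -0.52 ± 0.07, the sum 0.84 ± 0.09 and the excess -1.36 ± 0.11 (adjusted p = 7.3e-07), with 1 of 2 probe sets called.

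Fgfbp3, which encodes a carrier of Fgf ligands, did the same, with a Sey change of -0.67 ± 0.10, a sum of 1.62 ± 0.14 and an excess of -2.29 ± 0.18. Cemip, a hyaluronan-degrading protein gene, had an excess of -1.96 ± 0.21 by 1 probe set and 0.16 by the other. Qrfpr, a neuropeptide receptor gene, rose by 1.74 ± 0.15 in Leca4 and changed by -0.79 ± 0.15 in Leca2 and -0.75 ± 0.15 in Sey. Because 4 of its groups were at the filter level, these sizes are uncertain. In the opposite sense Foxp2, a forkhead gene of deep-layer neurons and of other forebrain territories, read 9.92, 9.61, 10.45 and 9.85 in the Sey mutants over controls at 9.05, 9.12 and 9.21. In Leca4 it fell, from 9.57, 9.71, 9.69 and 9.79 to 9.03, 9.22 and 9.01, and its excess was 1.59 ± 0.22, with 4 of 5 probe sets called. Cdh7, a cadherin gene, had an excess of 1.23 ± 0.18.

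**Figure D4:**
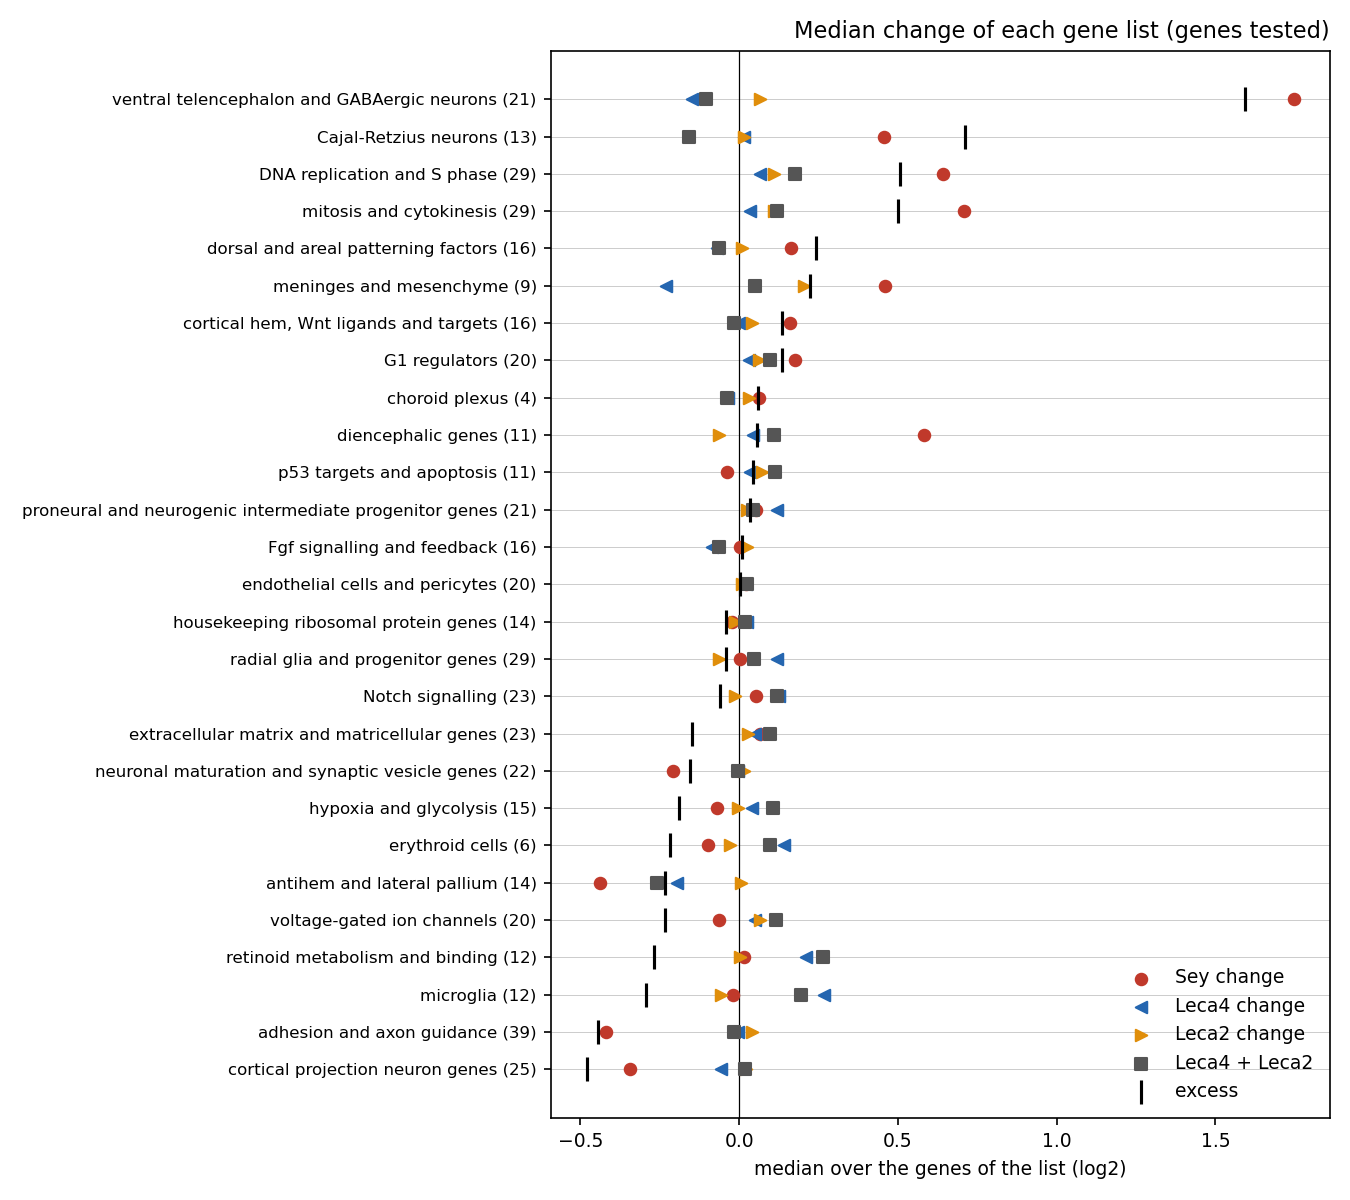
Median log2 change over the measured genes of each list, leaving out sex-linked genes and cortical identity markers, in Sey (circles), Leca4 and Leca2 (triangles), their sum (squares) and the excess (vertical strokes), ordered by the median excess, with the number of genes tested in parentheses. Ventral telencephalic genes stand at the top with a median excess of 1.59, replication and mitosis genes follow Cajal-Retzius genes at 0.51 and 0.50, and cortical projection neuron genes are lowest of the lists drawn, with -0.48.

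The lists of other cell types and of general functions are grouped here because they had 0 genes with a called excess. That 0 defines the grouping and tests nothing, since limma calls only 4.43% of all genes and the lists are short. At an unadjusted p under 0.05 they held 17 of 91 (18.7%), beside 2351 of all 13850 genes (17%). By list that share ran from 0% (choroid plexus) and 7.14% (ribosomal proteins) to 33.3% (hypoxia and glycolysis) and 36.4% (p53 targets). The 0 was not stable in every list: without Leca2 mutant replicate 4 limma called 3 negative excesses among the microglial genes, without Sey control replicate 2 it called 1 positive among those of hypoxia and glycolysis, and without 1 array it called at most 1 in either direction among the endothelial genes. These were the lists of 20 endothelial, 12 microglial, 6 erythroid, 4 choroid plexus and 9 meningeal genes, of 11 p53 targets, of 15 genes of hypoxia and glycolysis and of 14 ribosomal proteins. Meningeal genes moved in Sey all the same, where 4 of 9 rose. Their summed level ranged from 12.73 to 12.95 (log2) in the Sey mutants and from 11.63 to 11.97 in the controls. In Leca4 it ranged from 12.20 to 12.57 against 11.76 to 12.21, and in Leca2 from 12.29 to 12.42 against 11.72 to 12.20. Among the markers that rose, Crabp2, a retinoic acid-binding protein gene, had a Sey change of 1.78 ± 0.24 and Prrx1, a mesenchymal homeobox gene, one of 1.46 ± 0.17. The sum for Prrx1 was 1.28 ± 0.23. The part of meningeal tissue in the Sey change of other genes was not tested. Microglial genes were summed to 11.26 to 11.41 in the Leca4 mutants and 10.94 to 11.11 in the controls. The 7 measured markers of cortical identity were present in every group. In Sey 2 of them rose and 4 fell, with a summed level below that of every control. In the Leca lines mutants and controls overlapped, at 14.55 to 14.74 in the Leca4 mutants and 14.60 to 14.71 in the Leca2 mutants. Among the 7 markers 1 had a called negative excess, and 0 with the term for sex or the replicate block. In bulk tissue, fewer cells of a type and less transcript per cell cannot be told apart.

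Calls were denser on the chromosome that carries Pax6. On chromosome 2, 108 of 1118 genes (9.66%) had a called excess, against 505 of 12732 (3.97%) elsewhere. Within 100 genes of Pax6 on each side it was 9 of 41 (22%). The genes named above that lie on chromosome 2 include Pax6, Dlx1, Dlx2, Pbx3, Tbr1, Cdh4, Paupar, Cd44, Fbln7, Jag1, Snap25 and Pcna. Itpa and Gm14057, also there, were short of the sum, with excesses of 1.88 ± 0.29 and 2.41 ± 0.41. Linked strain differences around the mutated allele cannot be told apart from an effect of Pax6 there.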

How the data were processed

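Rostral cortex RNA of 21 embryos was measured, 1 array each. The values were deposited by the authors as log2 expression, made with RMA per the submitters' processing notes. RMA settings and the build behind the array design: not given in the sources used here. Amplification used MessageAmp Premier, per the labels' protocols.

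The arrays hold 45101 probe sets. Leaving out 64 controls, 9160 without a gene and 932 with several, 34945 named 1 gene, 34741 of these with a symbol in RefSeq GRCm38.p6. Probe sets were kept with at least 3 arrays above the 40th percentile of the array (29474, of which 25140 with 1 gene), and the brightest represented each of 13850 genes. Groups were compared with limma 3.58.1 in R 4.3.3 (lmFit, contrasts.fit, eBayes; 6 groups, 15 residual and 3.54 prior degrees of freedom), two-sided, with Benjamini-Hochberg adjustment over all genes. Errors are standard errors of the fit. The pipeline was tested on simulated data.

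The contrast, the 29 gene lists (527 symbols, 458 tested, written from general knowledge, some genes in several) and the rule for named genes were chosen with earlier results of these data known. The named genes are Pax6, the 10 largest excesses per direction beyond the sum whose Sey arrays do not overlap, 10 matched, 5 per direction short or opposed, up to 4 per list with the smallest p of the excess and 3 of the Sey change, and a set of index genes. Fewer are printed. Promoter stretches were picked after the matches were seen.

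Same-numbered arrays did not deviate together in a steady way (r from -0.44 to 0.34, over 0.1 in 4 of 9 pairs). Replicate numbers were therefore not taken to pair samples, which 9 values cannot settle. No arrays were identical. Alternatives were the replicate block, other filters, values set to the filter level, every probe set or their mean, other variance models, array weights, quantile normalization or centring, other thresholds, a term for sex, fewer genes, folds added linearly and leaving out each array.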

Additional observations from a re-analysis of the deposited data

Results flagged for a closer look

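Of 354 groups of 4 arrays checked over 118 genes, 14 held an array far from the other 3 by Dixon's criterion, and chance alone sets apart about 1 in 20 groups. In the Leca4 controls these were Slc18a2 (5.66 against 3.60 to 3.74 in the others) and Vax1 (7.03 against 5.57 to 5.78), both in replicate 3, Sorl1 (10 against 10.36 to 10.41) and Gm14057 (7.07 against 7.42 to 7.48), both in replicate 2, and Cd44 in replicate 1 (5.17 against 5.36 to 5.39). In the Leca2 mutants replicate 3 stood apart for Wls (6.34), Slc16a14 (7.75), Pcna (13.31) and Cdk1 (11.05), replicate 2 for Jag1 (7.87) and replicate 4 for Gm14057 (6.63). In the Sey mutants replicate 3 stood apart for Hpcal1 (9.99) and Zic1 (12.31) and replicate 4 for Lratd1 (7.47). The excess of Wls, Vax1, Slc18a2, Lratd1, Sorl1, Gm14057, Cd44, Jag1, Pcna and Cdk1 was called without each of these arrays. That of Cdk1 was not called with the term for sex (adjusted p = 0.073).

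Neurog1 and Qrfpr changed in opposite directions in the 2 Leca lines, and the test of the difference itself was called for both. The Leca4 change minus the Leca2 change was 2.77 on the log2 scale for Neurog1 and 2.53 for Qrfpr. The sum near 0 of Neurog1 thus hides a change in each line. Qrfpr averaged 4.63 over all arrays and had 4 groups at the filter level, so the sizes of its changes are uncertain.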

How the results depend on the processing

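Over the 118 named genes, no excess or sum that was called, in the model as reported or under a refitted alternative, changed its sign between them. Estimates that were not called changed sign under some alternatives. With the term for sex these were Prrx1 (to -0.06), Zic1 (to -0.10), Vcan (to 0.10) and Bcl2l11 (to -0.04). With folds added linearly, which has no test, Neurod4 turned from -0.70 to 0.69, Tnc from 0.10 to -0.35, Slc16a14 to 0.18 and Hpcal1 to 0.05. On that scale the excess was -2.73 for Rlbp1, -3.13 for Dmrta1, 1.02 for Slc14a1, 3.44 for Itpa and -0.19 for Aldoc, each moved by over 1.5 times. For Rlbp1, Slc14a1 and Itpa the summed fold was at its lower limit of 0.1. That limit sets the size of these 3 values, which therefore do not measure how far Sey lay from the sum. For Neurod4 the summed fold was close to the limit. Of the gene results under other settings 1553 kept their side of the threshold, 68 lost and 25 gained a call. Leaving out 1 array, 2301 kept it, 158 lost and 19 gained. The term for sex gave 299 genes with a called excess, 193 beyond the sum and 5 matched. At an adjusted p under 0.10 the counts were 970 for the excess, 688 beyond and 175 short. With every probe set on its own 576 had a called sum and 182 were short. Array weights gave 14 matched genes, 7 of them among the 9. Leaving out each array, the excess was called for 444 to 665 genes and the sum for 240 to 404, with 299 to 499 beyond, 5 to 12 matched, 86 to 126 short and 17 to 32 opposed. Without Leca2 control replicate 2 the sum fell to 240 calls and the opposed genes to 17, and without Leca4 mutant replicate 3 there were 5 matched genes. The causes were not tested. Replicate numbers were not taken to pair the samples, and with them as a block 509 genes had a called excess, 491 of them among the 613. The 95% interval of the excess, which is not adjusted for the number of genes, had a median reach of ± 0.30. An excess of that size or less was mostly not detectable with these arrays, and for a gene of that reach a call at the adjusted p needed a larger one. Genes with narrower intervals were called at smaller sizes, down to 0.28 among genes short of the sum and 0.29 among those beyond it. Gins1, a replication gene, had an excess of 0.52 ± 0.15 in limma and was not called (adjusted p = 0.052).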
